A study of Mus musculus with 4 samples.

Results

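Fibroblast-like matrix stroma was taken here as the cell barcodes of embryonic mouse kidney that carried the matrix transcripts Lum, Postn, Ogn and Dcn. A barcode was a member when mitochondrial genes held at most 10% of its transcript counts (UMIs), when Lum, Postn, Ogn and Dcn summed to at least 4 UMIs, when at least 1 of those UMIs was Lum or Ogn, and when Foxd1, Penk, Alx1 and Pecam1 had 0 UMIs. The rule was met by 766 of the 15144 barcodes. There were 71 members in wildtype 1, 79 in wildtype 2, 119 in mutant 1 and 497 in mutant 2. Because measured levels of these 8 genes chose the members, those levels and the share of barcodes that are members are given as description, with no test.

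Kidney cells of mouse embryos at E14.5 were profiled by Drop-seq, which captures single cells in droplets with barcoded beads and sequences the 3' ends of their transcripts. All 4 libraries share a strain labelled mixed, mostly CD-1 and 129. Of these, 2 are labelled wildtype and 2 mutant, with the genotype Hoxa9,10,11 and Hoxd9,10,11 -/-, a set of Abd-B class genes that pattern the posterior body. Neither the altered stretch of each gene nor separate animals per library are given, so a p-value here covers the spread among 4 libraries, part of which may be technical.

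Lumican (Lum), decorin (Dcn) and osteoglycin (Ogn) are small leucine-rich proteoglycans that bind collagen fibrils and set their spacing, and periostin (Postn) is a secreted matricellular protein that links collagen, fibronectin and tenascin. Fibroblasts lay down this interstitial matrix. In the developing kidney the stroma includes a cortical compartment marked by Foxd1, a medullary compartment, and the mesenchyme around the ureter and renal pelvis, part of which becomes smooth muscle. The rule set aside barcodes with cortical (Foxd1), medullary (Penk, Alx1) or endothelial (Pecam1) transcripts.

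The tables held between 3572346 and 24834658 UMIs per library. Of wildtype 1, wildtype 2, mutant 1 and mutant 2 barcodes, 7.76%, 9.06%, 19.6% and 29.1% were over the mitochondrial limit and were left out. Members had median depths of 2364, 3061, 2651 and 3097 UMIs in that order, and the other kept barcodes 3661, 3487, 2383.5 and 2983.5. Libraries shared 3 barcodes, and 0 of these were members. Mutant 2 holds most members.

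The 4 selecting genes were not equally represented among the libraries. Lum was detected in 70.4% and 74.7% of wildtype members and in 89.1% and 88.3% of mutant members. Postn was detected in 66.2% and 54.4% against 91.6% and 90.7%, so it separated the genotypes more widely than Lum. Ogn was detected in 59.2% and 57.0% against 44.5% and 55.9%, and Dcn in 90.1% and 93.7% against 95.0% and 94.6%. Summed over members, Postn reached 738 and 437 counts per 1000000 UMIs (CPM, without further scaling) in wildtype 1 and 2, against 1083 and 1530 in mutant 1 and 2, with no overlap. Lum gave 648 and 596 against 805 and 895 CPM, while Ogn (513 and 330 against 222 and 396) and Dcn (2006 and 1438 against 2076 and 1906) overlapped.

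**Figure D1:**
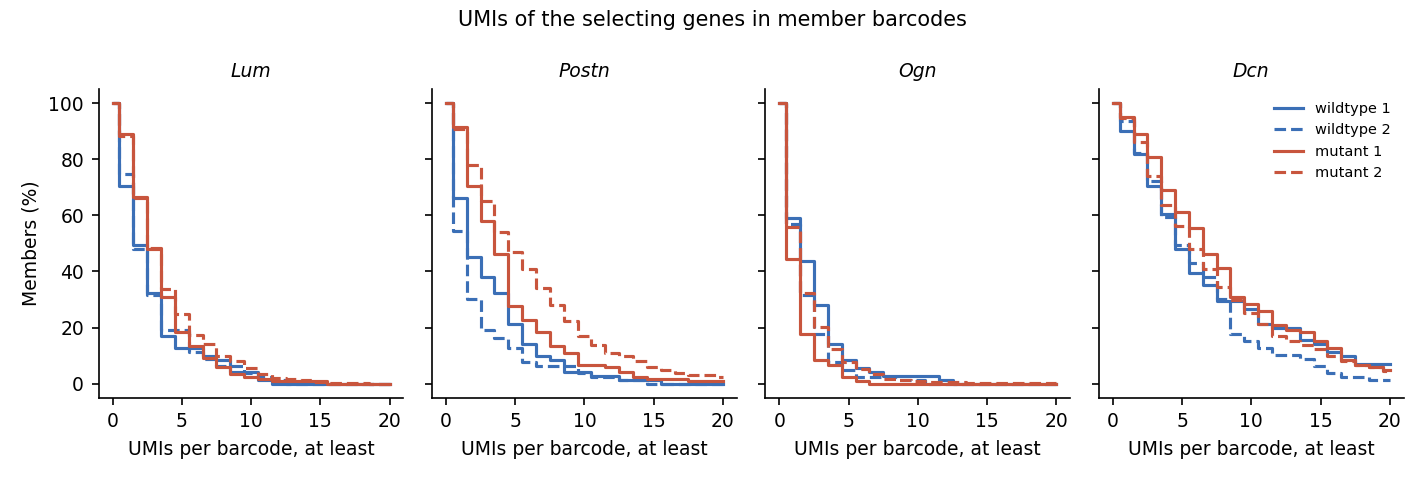
Percent of member barcodes (vertical axis) with at least the number of UMIs on the horizontal axis, for Lum, Postn, Ogn and Dcn, in wildtype (blue) and mutant (red) libraries (solid lines, replicate 1; dashed lines, replicate 2). At low UMI counts the Postn curves of the mutant libraries lie above those of the wildtype libraries, with 91.6% and 90.7% of mutant members and 66.2% and 54.4% of wildtype members holding at least 1 UMI.

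All 4 genes were present in 268 members, 3 of them in 378, 2 in 117 and 1 in 3. The summed UMIs of the 4 genes had medians of 9, 9, 12 and 13 per member in wildtype 1, wildtype 2, mutant 1 and mutant 2. Just inside that threshold, at a sum of 4, lay 4, 15, 7 and 29 members. Just outside, at a sum of 3, lay 12, 18, 7 and 44 barcodes. Just inside the mitochondrial limit, at 9% to 10%, lay 2, 2, 2 and 20 members, and 0, 1, 3 and 20 barcodes that met the rest of the rule lay at 10% to 11%. The requirement of 0 UMIs for Foxd1, Penk, Alx1 and Pecam1 removed 80, 141, 60 and 452 barcodes and left 71, 79, 119 and 497. It thus removed more than it left in the wildtype libraries and fewer in the mutant libraries. The removed barcodes had median depths of 3362.5, 3931, 5477 and 4071.5 UMIs.

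Genes outside the rule were read to describe the members. Col1a2, a chain of type I collagen, had a UMI in 100% of the members of wildtype 1, wildtype 2 and mutant 1 and in 99.8% of those of mutant 2. Sparc, a collagen-binding matricellular protein, had one in 97.2%, 100%, 97.5% and 97.8%. These rates were not set against other barcodes, so alone they do not mark the members. The 15 fibrillar and associated collagens summed to 13637, 6268, 14962 and 18357 CPM in members. In the other kept barcodes they summed to 1314, 693, 3456 and 3774 CPM. Transcripts of some other lineages were found in members and those of others were not. Of cartilage, bone and tendon markers 8 of 11 were found, Acan, Matn1 and Tnmd being at 0. They summed to 176 and 185 CPM in wildtype and 62.5 and 52.3 in mutant members, against 136, 108, 63.2 and 58.6 in the other kept barcodes. Most of this was Sox9, a transcription factor of cartilage and other tissues, at 119, 110, 55.5 and 31.9 CPM in members. Skeletal muscle markers, with Myod1, Myog and Pax7 at 0, summed to 65.6, 74.5, 64.8 and 104 CPM in members against 46.7, 55.7, 62.9 and 66.0 in the others. Sox10 and Foxd3 of glia and neural crest were at 0, while the 14 neural, glial and chromaffin markers summed to 61.5, 71.2, 25.5 and 46.8 CPM in members against 61.3, 50.1, 268 and 264. The 17 markers of nephron and ureteric epithelium summed to 472 and 366 CPM in wildtype members and 69.4 and 133 in mutant members, against 904 to 1207 in the other kept barcodes. The 10 endothelial markers gave 69.7 and 68.0 against 120 and 148 CPM. The 9 erythroid genes gave 7682 and 28084 against 310 and 6442 CPM, and 14 members had over 1% erythroid UMIs. The 13 genes of ureter mesenchyme and smooth muscle gave 2764 and 1298 against 491 and 718 CPM. Without Car3 of that list they gave 1616 and 709 against 430 and 676, and 272, 247, 593 and 555 in the other kept barcodes. The part of these other markers in the results on members was not tested.

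Members made up 3.64% of kept barcodes in wildtype 1 (95% exact binomial interval 2.86 to 4.57) and 1.57% in wildtype 2 (1.24 to 1.95). They made up 14.0% in mutant 1 (11.7 to 16.5) and 10.9% in mutant 2 (10.0 to 11.8). Intervals here cover counting error only. The genotype means were 2.61% ± 1.47 and 12.4% ± 2.15 (SD, n = 2 each), a 4.77-fold higher share in the mutant libraries, which did not overlap the wildtype ones. Thinned to 2000 UMIs per barcode, with 504, 1674, 351 and 1638 shallower barcodes left out, the shares were 2.63%, 1.66%, 16.5% and 12.4%. With no requirement on Foxd1, Penk, Alx1 and Pecam1 the genotype means were 6.06% and 20.9%. A share rises when other cells are fewer, so it does not give the number of these cells in a kidney.

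**Figure D2:**
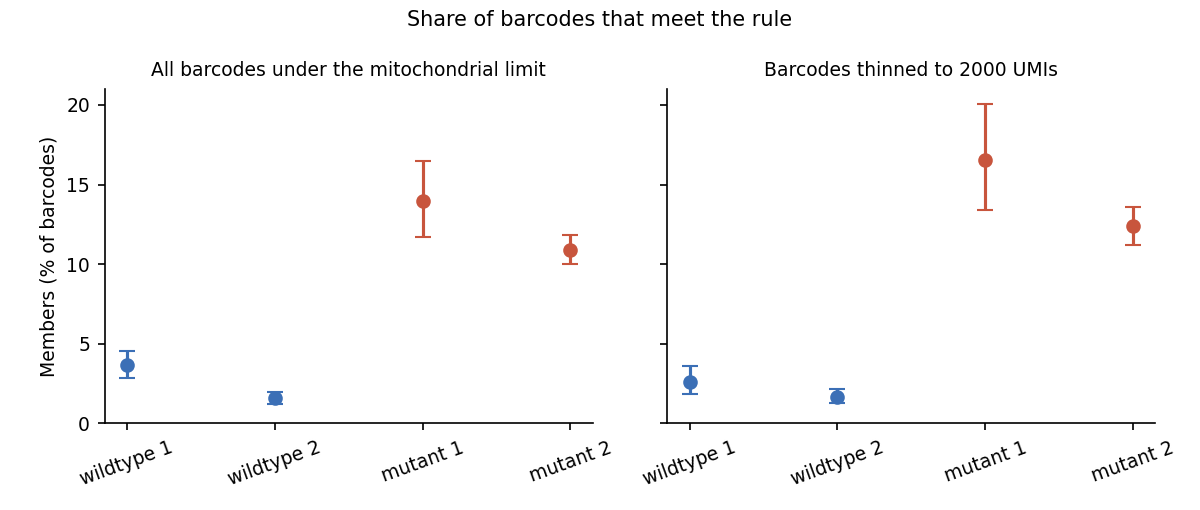
Share of kept barcodes that met the rule in each library (percent, points) with 95% exact binomial intervals (bars), over all kept barcodes (left) and over barcodes thinned to 2000 UMIs (right). Both mutant libraries (14.0% and 10.9%; thinned 16.5% and 12.4%) lie above both wildtype libraries (3.64% and 1.57%; thinned 2.63% and 1.66%).

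Members were next compared with 2 other stromal sets of the same libraries, to show what the matrix stroma holds beyond the selecting genes. Cortical stroma barcodes had at least 3 UMIs over Foxd1, Ntn1 and Crabp1 with at least 1 of Foxd1, and numbered 37, 76, 22 and 87. Medullary stroma barcodes had at least 3 UMIs over Penk and Alx1, and numbered 39, 174, 8 and 93, so that mutant 1 held very few. Both sets had 0 UMIs of Lum, Ogn and Pecam1, the cortical set 0 of Penk and Alx1, and the medullary set 0 of Foxd1. UMIs were summed per library and set, the genes of the rules were left out, and the sets were compared within libraries by the quasi-likelihood test of edgeR, with p-values adjusted over all genes tested. Genes that vary together with the selecting genes can differ between such sets by construction, and median depths differed too, at 4048, 5264, 3631 and 3844 UMIs in cortical stroma barcodes.

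Against cortical stroma, collagens, elastic fibre genes and some contractile genes were higher in members. Of 5507 genes, 384 passed (6.97%), 256 higher in members (4.65%) and 128 lower (2.32%), and 26.2% of all genes had the same direction in every library. Of 12 fibrillar and associated collagens tested, 9 passed, all higher, with a median log2 fold change of 2.02 beside -0.02 over all genes. Col1a1 (chromosome 11, 94936224 to 94953042, mm10), the other chain of type I collagen, gave 246, 319, 866 and 647 CPM in cortical stroma barcodes of wildtype 1, wildtype 2, mutant 1 and mutant 2, and 1775, 1679, 2958 and 2681 in members. Every library was higher in members (log2 fold change 2.23, SE 0.14, adjusted p = 2.64e-05). Sparc averaged 784 ± 256 and 2574 ± 490 CPM in cortical stroma barcodes and members (SD, n = 4; log2 fold change 1.76, SE 0.08, adjusted p = 1.15e-12).

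Elastic fibre and microfibril genes passed in 10 of 13 cases, all higher. The lysyl oxidase Lox, which crosslinks collagen and elastin, gave 11.2, 1.87, 11.5 and 17.6 CPM in cortical stroma barcodes and 264, 125, 56.7 and 154 in members (log2 fold change 3.95, SE 0.37, adjusted p = 1.4e-07). The fibulins Fbln1, Fbln2 and Fbln5, the fibrillins Fbn1 and Fbn2, and Ltbp1, Emilin1, Efemp2 and Mfap2 passed in the same direction. Of 12 collagen processing genes, 5 passed, all higher: the procollagen C-proteinase enhancer Pcolce, the collagen chaperone Serpinh1, Crtap, Loxl2 and P4ha2. The proteoglycan Bgn was higher as well (log2 fold change 1.48, SE 0.22, adjusted p = 0.000112). Not every matrix gene was higher. Tgfbi, a secreted adhesion protein, fell from 377 ± 42.2 in cortical stroma barcodes to 260 ± 15.9 CPM in members (log2 fold change -0.53, SE 0.13, adjusted p = 0.013), a call lost without wildtype 1 (adjusted p = 0.0643) and without mutant 2 (adjusted p = 0.17).

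Members also carried signalling and contractile genes. Sfrp2, a secreted Wnt modulator, gave 16.8, 91.8, 92.3 and 77.7 CPM in cortical stroma barcodes and 338, 614, 383 and 441 in members (log2 fold change 2.71, SE 0.19, adjusted p = 1.71e-09). Sfrp1, Dkk3 and Nkd1 of the 8 Wnt genes tested were also higher. Among smooth muscle and ureter mesenchyme genes, 4 of 6 passed, all higher: Tagln and Mylk, which act in contraction, the transcription factor Tshz3, and Car3. Without Car3 that list summed to 240, 114, 88.9 and 403 CPM in cortical stroma barcodes and 1616, 709, 430 and 676 in members (without TMM). The other kept barcodes of mutant 1 and mutant 2 gave 593 and 555, so in the mutant libraries the list did not set members apart from all barcodes. Car3 encodes carbonic anhydrase 3 and averaged 6.01 ± 4.04 in cortical stroma barcodes and 499 ± 562 CPM in members, where the SD exceeded the mean. Of the stromal transcription factors, Gata6, Tcf21, Zeb2, Tshz2, Snai2 and Foxp1 were higher in members and Hic1 and Meis2 lower, of 20 tested.

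Genes lower in members included some cortical genes and G2 and M phase genes. Of 5 genes of the cortical list tested, 2 passed lower, Aldh1a2 and Uncx, and 1 passed higher, Sfrp1. Aldh1a2, an enzyme that makes retinoic acid and is known from cortical stroma, gave 923, 724, 185 and 216 CPM in cortical stroma barcodes and 110, 132, 43.2 and 54.6 in members (log2 fold change -2.40, SE 0.17, adjusted p = 1.71e-09). Crabp2, which carries retinoic acid, and the transcription factor Uncx were lower too. Cadm1, a cell adhesion molecule, fell from 188 ± 108 to 29.9 ± 12.1 CPM. Of 16 genes of G2 and M phase, 9 passed, all lower, among them Top2a (647 ± 144 and 451 ± 137 CPM), Ube2c, Nusap1, Birc5, Bub1 and Ccnb2. All 16 were below 0, with a median of -0.67, and 3 of the 16 passed with DESeq2. The call count depends on the fit: 138 genes passed with DESeq2, 97 with sets chosen after thinning, 17 without the library block, 170 without wildtype 2 and 246 without mutant 2. Of these 122, 75, 17, 159 and 217 were among the 384. Every one of the 384 genes that could be tested kept its sign in each of these fits. The fits reuse counts of the same libraries, so the kept signs are no independent support.

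Against medullary stroma the collagens were again higher in members, while only some of the transcription factor calls were the same. Of 5581 genes, 186 passed (3.33%), 132 higher (2.37%) and 54 lower (0.968%), and 17.2% of all genes had the same direction in every library. Of 12 collagens, 10 passed, all higher, with a median log2 fold change of 1.06 beside 0.00 over all genes. Col1a1 gave 632, 507, 451 and 649 CPM in medullary stroma barcodes and 1815, 1764, 3074 and 2725 in members, with no overlap (log2 fold change 1.94, SE 0.18, adjusted p = 1.33e-23). Lox, Fbln2, Fbln5, Fbn2 and Mfap5 were higher among 13 elastic fibre genes. Sfrp2 was higher here too, at 8.91, 91.4, 135 and 49.0 CPM in medullary stroma barcodes against 346, 646, 398 and 448 in members (log2 fold change 3.02, SE 0.24, adjusted p = 9.35e-34). In this fit the genes shared 1 trend of spread, with no estimate of their own, and the medullary set of mutant 1 held 20559 UMIs in all.

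Gata6, a zinc-finger transcription factor, was higher in members than in either stromal set, at 53.4, 26.3, 90.2 and 66.1 CPM in medullary stroma barcodes and 117, 93.8, 252 and 248 in members (log2 fold change 1.76, SE 0.27, adjusted p = 1.4e-08). Foxp2, Klf4, Tshz2, Foxp1 and Prrx1 were also higher than in medullary stroma barcodes, and Tshz2 and Foxp1 were higher than in cortical ones too. Tcf21, a helix-loop-helix factor of renal mesenchyme, ran the other way. It was lower in members than in medullary stroma barcodes (657 ± 337 and 319 ± 86.8 CPM, log2 fold change -1.04, SE 0.17, adjusted p = 1.88e-07), though higher than in cortical ones. Without wildtype 2 the medullary call was lost (adjusted p = 0.0658). Tbx3 (log2 fold change -2.38, SE 0.29, adjusted p = 9.3e-14), Snai2 and the ligand Wnt5a were lower in members of every library but mutant 1. Snai2, like Tcf21, was higher in members than in cortical stroma barcodes. Lrriq1, a leucine-rich repeat gene, had the largest fall of the 54 genes, from 342 ± 355 to 17.5 ± 19.3 CPM. Among Hox genes under mutation in this study, Hoxa10 passed, lower in members of all libraries but wildtype 1 (281 ± 77.0 and 181 ± 24.6 CPM). It passed in 3 of 9 alternative fits, and not without wildtype 2 (adjusted p = 0.702) or without mutant 2 (adjusted p = 0.546).

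Imprinted growth genes were a further group higher in members than in medullary stroma barcodes, with 8 of 13 passing and 0 lower. They included the growth factor Igf2 (1294 ± 619 and 2527 ± 462 CPM), the Notch-family ligand Dlk1, the noncoding RNAs Meg3, Rian and H19, and Peg3, Igf2r and Mest. Against cortical stroma, Igf2r, Rian, Igf2 and Ndn passed. Of the 16 G2 and M phase genes 0 passed against medullary stroma by edgeR, with 2 at an unadjusted p of at most 0.05, and 0 by DESeq2. Counts of passing genes were 83 with DESeq2, 27 without the library block, 84 without wildtype 2 and 116 without mutant 2. Of these 82, 27, 79 and 95 were among the 186.

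**Figure D3:**
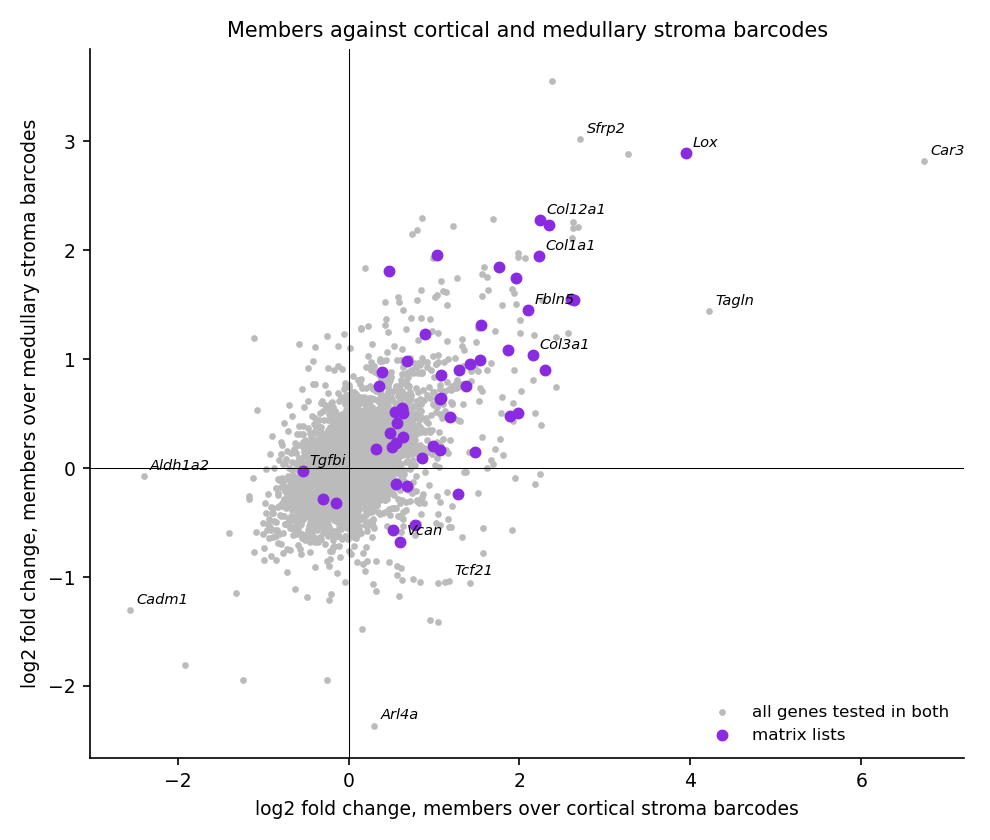
Log2 fold change of each gene in members over cortical stroma barcodes (horizontal) and over medullary stroma barcodes (vertical); purple points are genes of the matrix lists, grey points all genes tested in both. Collagens such as Col1a1 (2.23 and 1.94) and Lox (3.95 and 2.89) lie to the upper right, while Tcf21 (1.17 and -1.04) lies on different sides of 0; both axes use the same members, so agreement between them is no independent support.

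Members also varied among themselves. Those with more Postn than Dcn UMIs (Postn-led) numbered 12, 14, 23 and 179, and those with more Dcn than Postn (Dcn-led) 54, 59, 83 and 275. Compared within libraries, 0 of 3539 genes passed edgeR's test (0.0%), with 133 at an unadjusted p of at most 0.05, and 0 passed with DESeq2, with 61 at that p. Of all genes, 12.7% had the same direction in every library. The count was 33 without wildtype 2, 4 without mutant 2, 2 without wildtype 1 and 0 without mutant 1. Car3 gave 1594, 1024, 96.4 and 71.7 CPM in Dcn-led members of wildtype 1, wildtype 2, mutant 1 and mutant 2, and 0, 26.4, 18.4 and 18.5 in Postn-led members. It was lower in Postn-led members of 4 of 4 libraries (log2 fold change -3.67, SE 0.56, adjusted p = 0.15). Smooth muscle actin Acta2 followed the same order, at 609, 256, 158 and 390 CPM against 32.3, 65.9, 55.2 and 249 (adjusted p = 0.218). Tgfbi (227 ± 52.1 and 448 ± 107 CPM) and Smoc2 (88.0 ± 29.1 and 236 ± 146), both secreted matrix proteins, were higher in Postn-led members of 4 of 4 libraries and did not pass (adjusted p = 0.218 and 0.15). The Dcn-led side had higher levels of the transcription factors Id2 and Tcf21 in 4 of 4 libraries, also without passing. Of the cortical stroma list, which includes Smoc2, 4 of 4 genes tested were above 0, toward Postn-led members (median 1.20). Of the retinoic acid list, 5 of 5 were above 0 (median 0.79), Aldh1a2 and Crabp2 among them. By edgeR 3 and 4 of these had an unadjusted p of at most 0.05, and 0 passed.

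The genotypes were then compared within members, on UMIs summed per library and scaled by TMM, a normalization that lessens the weight of a few abundant genes. Among 5893 genes, 30 passed edgeR's test (0.509%), 18 higher in the mutant libraries (0.305%) and 12 lower (0.204%), and 34.6% of all genes did not overlap between the genotypes. DESeq2 called 24, of which 22 were among the 30. Choosing members by the rule on counts thinned to 2000 UMIs gave 38, 56, 83 and 361 barcodes. These are not simply a part of the 766, because a barcode can lose its Foxd1, Penk, Alx1 or Pecam1 UMIs in thinning and so enter. With this set 0 genes passed (297 at an unadjusted p of at most 0.05). All 26 of the calls that could be tested kept their sign, which is no independent support, as the libraries are the same. The count was 64 without wildtype 2 and 59 without mutant 2, of which 20 in each case were among the 30. It was 34 without wildtype 1 and 37 without mutant 1, of which 14 and 22 were among the 30. The number of genotype calls thus depends on how members are chosen and on single libraries.

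Of the targeted genes, 0 of 6 passed with edgeR (2 at an unadjusted p of at most 0.05) or with DESeq2. Hoxd11 gave 106 and 96.6 CPM in wildtype members and 192 and 275 in mutant members (log2 fold change 1.22, SE 0.40, adjusted p = 0.255), and Hoxd10 gave 67.9 and 46.5 against 122 and 149 (adjusted p = 0.32). Hoxa10 gave 199 and 182 against 157 and 150, and Hoxa9 144 and 140 against 189 and 150. Hoxa11 and Hoxd9 overlapped between the genotypes. A 3' tag outside the altered part checks nothing, so these levels do not test the genotypes. Hoxc10, a paralogue outside the targeted clusters, gave 102 and 89.4 against 270 and 208 CPM and did not pass (adjusted p = 0.198).

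Car3 was the gene with the smallest p. It lies on chromosome 3 (14863512 to 14872523, mm10) and gave 1188 and 651 CPM in wildtype members and 70.3 and 43.4 in mutant members. The groups lay far apart, at 920 ± 380 and 56.8 ± 19 CPM (SD, n = 2 each; log2 fold change -4.07, SE 0.48, adjusted p = 2.29e-05). A Car3 UMI was found in 23.9% and 24.1% of wildtype members and in 5.88% and 4.63% of mutant members, so a smaller share of members held it. The members that held it numbered 17 and 19 against 7 and 23, which were 0.872% and 0.377% of kept barcodes against 0.821% and 0.505%. The part of the larger number of mutant members in the smaller share was not tested. Among members with at least 1 Car3 UMI, wildtype barcodes held a mean of 16.5 and 9.58 Car3 UMIs each, and mutant barcodes 3.71 and 3.35. For genes given only as summed counts, fewer cells of a kind and less RNA per cell cannot be told apart. Car3 passed without each library in turn, but not with members chosen after thinning (log2 fold change -3.69, adjusted p = 0.23).

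The summed level of ureter mesenchyme and smooth muscle genes without Car3 was nearly equal in wildtype 2 and mutant 2 (709 and 676 CPM). Of the 7 ureter mesenchyme and smooth muscle genes tested, 7 were below 0 and 2 passed, Car3 and Actg2, a smooth muscle actin (median -0.88 beside 0.00 over all genes). Actg2 gave 132 and 46.5 CPM against 13.5 and 13 (log2 fold change -2.72, SE 0.55, adjusted p = 0.0113) and did not pass without wildtype 1 or without mutant 2. Tagln (144 and 118 against 83.8 and 61.4 CPM) and Mylk (463 and 247 against 143 and 185) did not pass. Within wildtype members, the 17 and 19 barcodes with a Car3 UMI held 4005 and 1519 CPM summed over the other genes of that list, and the 54 and 60 without one 311 and 431. The 7 and 23 mutant members with one held 554 and 1465 CPM, and the 112 and 474 without one 419 and 622. Actg2 was at 0 in wildtype members without a Car3 UMI. Postn ran opposite, at 151 and 114 CPM in wildtype members with a Car3 UMI and 1059 and 548 in those without. Ogn (174 and 88.6 against 698 and 413 CPM) and Dcn (1149 and 1101 against 2473 and 1553) were lower in them too. Lum was lower in those of wildtype 1 (522 against 717 CPM) and higher in those of wildtype 2 (949 against 474). This split was chosen after the values were seen and has no test.

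Sema3c, a secreted guidance molecule, gave 204 and 157 CPM in wildtype members and 29.7 and 40.0 in mutant members (log2 fold change -2.31, SE 0.42, adjusted p = 0.00549), and passed without each library in turn. The pericyte gene Rgs5 gave 84.9 and 85.8 against 10.8 and 14.6 CPM (log2 fold change -2.64, SE 0.50, adjusted p = 0.00632). The cell cycle gene Ccnd1, the chromatin protein gene Hmga1, the immunity-related Iigp1, the transporter gene Slc26a7 and the neuronal gene Stmn2 were also lower. Stmn2 lost its call without any one of the 4 libraries, Slc26a7 without wildtype 2 or mutant 1, and Iigp1 without any library but wildtype 1. Hmga1 has a near-identical copy and is uncertain.

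Some of the lower genes are known from the nephron lineage. Pax2, a transcription factor of nephron progenitors and ureteric bud, gave 72.1 and 96.6 CPM against 2.70 and 7.88. Cited1, a progenitor gene, gave 59.4 and 46.5 against 2.70 and 0.563, and the epithelial adhesion gene Epcam 59.4 and 71.5 against 8.11 and 11.3. Outside the members Cited1 followed the same order, at 114 and 142 CPM against 12.9 and 8.88 in the other kept barcodes. Cited1 lost its call without wildtype 1 or mutant 2, and Epcam without wildtype 2 or mutant 2. An epithelial marker UMI was found in 23.9% and 34.2% of wildtype members and in 11.8% and 20.7% of mutant members. Without those barcodes, 14 genes passed, all among the 30, and Car3 (adjusted p = 0.00282), Nefm, Rgs5, Sema3c, Stmn2 and Tsix were still among them, while Pax2, Cited1 and Epcam had too few counts to be tested. How far epithelial RNA sets the other calls was not tested.

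**Figure D4:**
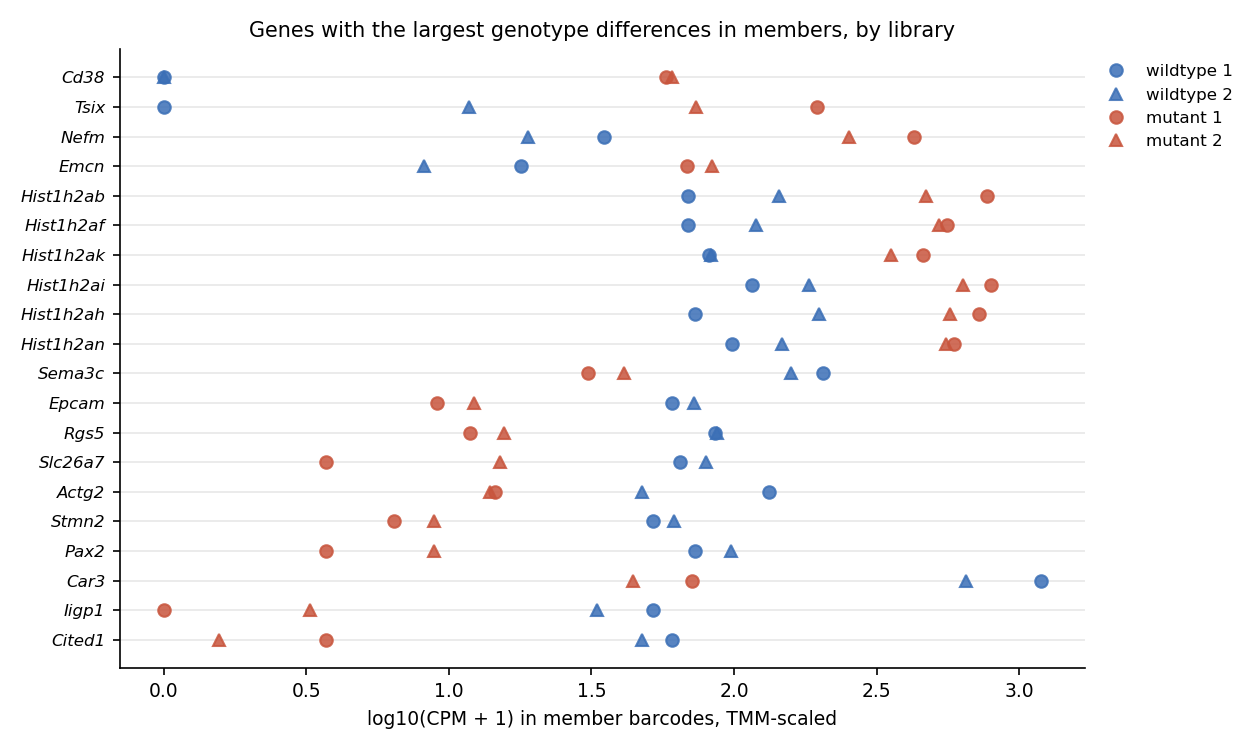
Level of the named genes that passed the genotype test in members, as log10(CPM + 1) with TMM scaling (horizontal), for each library (blue, wildtype; red, mutant; circles, replicate 1; triangles, replicate 2). The mutant points of Car3 (70.3 and 43.4 CPM) lie to the left of the wildtype points (1188 and 651), and those of Nefm (427 and 251) to the right (33.9 and 17.9).

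Among the 18 higher genes, Nefm had the largest change of those with a UMI in all 4 libraries. It encodes the medium neurofilament chain, a cytoskeletal protein of neurons, on chromosome 14 (68082590 to 68124846, mm10). Nefm gave 33.9 and 17.9 CPM in wildtype members and 427 and 251 in mutant members (log2 fold change 3.71, SE 0.50, adjusted p = 0.000143), with a UMI in 4.23% and 6.33% against 33.6% and 30.8% of members. It was higher in the mutant libraries outside the members as well, at 9.48 and 8.09 against 144 and 63.6 CPM in the other kept barcodes. The light chain Nefl gave 29.7 and 0 against 103 and 54.1 CPM and did not pass. The summed neural, glial and chromaffin markers of members, given above, had the opposite order to Nefm. In the other kept barcodes they had the same order as Nefm (61.3 and 50.1 against 268 and 264 CPM). The source of the Nefm transcripts was not tested. Nefm passed without each library in turn and missed the threshold with members chosen after thinning (adjusted p = 0.0982).

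Cd38, an enzyme that uses NAD, had 0 UMIs in wildtype members, and 56.8 and 59.7 CPM in mutant members. Set against a floor of 3 UMIs over the wildtype members, it was at least 10.4-fold higher. Without mutant 2 it did not pass. The sialomucin gene Emcn, an endothelial marker, gave 17.0 and 7.15 against 67.6 and 82.8 CPM, and did not pass without wildtype 2 or mutant 2. Ptov1 and Dcun1d5 also passed. The remaining higher genes included 11 histone H2A genes with log2 fold changes from 1.88 to 2.53, such as Hist1h2ab (67.9 and 143 against 768 and 470 CPM). These genes are near-identical copies whose reads can be split between them, so they are uncertain as separate genes, and without wildtype 1 most of them did not pass. In the same members the 16 G2 and M phase genes were all above 0 (median 0.64) and 13 of 15 S phase genes below 0 (median -0.37), and 0 of either list passed with edgeR (4 and 3 at an unadjusted p of at most 0.05) or with DESeq2.

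Tsix, the antisense partner of Xist on the X chromosome, gave 0 and 10.7 CPM in wildtype and 195 and 72.7 in mutant members. No source used here gives the strand handling of the counts, and without it reads of Tsix and Xist cannot be told apart. Xist gave 0, 232, 735 and 433 CPM in wildtype 1, wildtype 2, mutant 1 and mutant 2, and the Y-linked Ddx3y 90.2, 90.7, 2.31 and 89.2 (without TMM). The part of the embryos' sex in the genotype calls was not tested.

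The selecting genes were not tested between genotypes, and 0 genes of the other matrix lists passed. Of 12 collagens 0 passed with edgeR (1 at an unadjusted p of at most 0.05) or DESeq2, 10 were above 0 and the median was 0.60 beside 0.00 over all genes. Col1a2 gave 7129 and 2346 against 10307 and 9772 CPM (log2 fold change 1.08, SE 0.54, adjusted p = 0.714), with wildtype 2 far below wildtype 1. Of 18 matricellular genes 15 were above 0 and 0 passed with either tool (4 at an unadjusted p of at most 0.05 with edgeR). Spon1 (25.5 and 10.7 against 67.6 and 86.7 CPM, adjusted p = 0.108) and Matn2 (136 and 96.6 against 214 and 262, adjusted p = 0.422) came nearest. They did not overlap between the genotypes, and neither did 34.6% of all genes tested. Of 15 elastic fibre genes and 13 collagen processing genes 0 passed with either tool, with 1 and 3 at an unadjusted p of at most 0.05 in edgeR, and the proteoglycans Bgn and Aspn did not pass. Aspn (115 and 39.3 against 13.5 and 29.8 CPM) and Bgn (127 and 75.1 against 192 and 197) pointed in different directions.

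Of 23 stromal transcription factors and 8 Wnt genes, 0 passed with edgeR (6 and 2 at an unadjusted p of at most 0.05) or DESeq2. Tbx18, a factor of ureter mesenchyme, gave 174 and 42.9 against 8.11 and 28.2 CPM, and Twist1 17.0 and 10.7 against 64.9 and 49.0 (adjusted p = 0.198 for each). Sfrp1 gave 437 and 397 against 873 and 1642 CPM (adjusted p = 0.149), and Wnt5a 25.5 and 39.3 against 73.0 and 112 (adjusted p = 0.256). These 4 were named for the smallest p of their lists. None of them overlapped between the genotypes, and neither did 34.6% of all genes tested. Malat1, a nuclear RNA read as a sign of RNA quality, gave 3603 and 2801 against 5662 and 7928 CPM and did not pass (adjusted p = 0.653).

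Whether the genotype difference in members differed from that in the other stroma was tested as an interaction, with the cortical and medullary barcodes joined as other stroma. This fit has few residual degrees of freedom, and the other stroma of mutant 1 had 30 barcodes. Of 6733 genes 14 passed (0.208%), 2 with a more positive difference in members (0.0297%) and 12 with a more negative one (0.178%). One of the 12 was a haemoglobin gene. Igf1, insulin-like growth factor 1, gave 49.7 and 10.5 CPM in other stroma of the wildtype libraries and 182 and 262 in that of the mutant libraries. In members it gave 331 and 87.8 against 129 and 297. The other stroma was higher in the mutant libraries, and members overlapped between genotypes (difference -2.83 on the log2 scale, SE 0.38, adjusted p = 8.28e-05).

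The secreted Wnt antagonist Dkk2 had the same shape, at 49.7 and 8.97 against 384 and 157 CPM in other stroma and 310 and 84.3 against 274 and 298 in members (difference -2.42, SE 0.46, adjusted p = 0.0186). Igf1 and Dkk2 passed in all 9 alternative fits. Ccdc80, a secreted matrix protein, moved in opposite directions: it was higher in mutant other stroma (96.2 and 80.0 against 211 and 174 CPM) and lower in mutant members (407 and 288 against 191 and 153; difference -2.11, SE 0.30, adjusted p = 0.00012). Car3 was lower in mutant members, at 1175 and 640 against 69.9 and 42.1 CPM. The joined other stroma had the same order at low counts (39.8 and 34.4 against 9.59 and 23.2 CPM). Its medullary barcodes gave 89.2 and 54.9 against 0 and 40.3 CPM without TMM, from 11 and 45 against 0 and 18 UMIs. Its cortical barcodes held 1 and 1 against 1 and 2 Car3 UMIs, too few to show a fall. The genotype difference of Car3 was more negative in members (difference -3.33, SE 0.52, adjusted p = 0.000397). The call was lost without mutant 2 (adjusted p = 0.894). The imprinted genes Dlk1, Meg3 and Peg10, and Cav1, Acta2, Efemp1 and Mgp were the other named genes with a more negative difference in members. Without mutant 2, 7 of the 14 genes kept their calls. The others were Car3, Cav1, Peg10, Efemp1, Mgp, Acta2 and the haemoglobin gene, and the difference of Acta2 turned to 0.65.

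Hmga2, a chromatin protein of growing embryonic cells, gave 395 and 279 against 278 and 217 CPM in other stroma and 176 and 214 against 608 and 381 in members (difference 1.63, SE 0.27, adjusted p = 0.000824). Cdkn1c, an imprinted inhibitor of cell division, gave 3797 and 2852 against 2800 and 1694 in other stroma and 1875 and 1388 against 2158 and 1856 in members (difference 0.93, SE 0.14, adjusted p = 0.000253). Both lost their calls without wildtype 1, as did Meg3, Efemp1 and Acta2. Without wildtype 2 the calls of Dlk1, Peg10, Efemp1 and the haemoglobin gene were lost. Leaving out wildtype 1, 16 genes passed, 9 of them among the 14. With wildtype 2 left out it was 22, with 10 of the 14, and with mutant 1 left out 23, with all 14. It was 28 with mutant 2 left out, with 7 of the 14. Medullary barcodes made up 39 of 76, 174 of 250, 8 of 30 and 93 of 180 of the other stroma in wildtype 1, wildtype 2, mutant 1 and mutant 2, and the part of this mix in the differences was not tested.

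**Figure D5:**
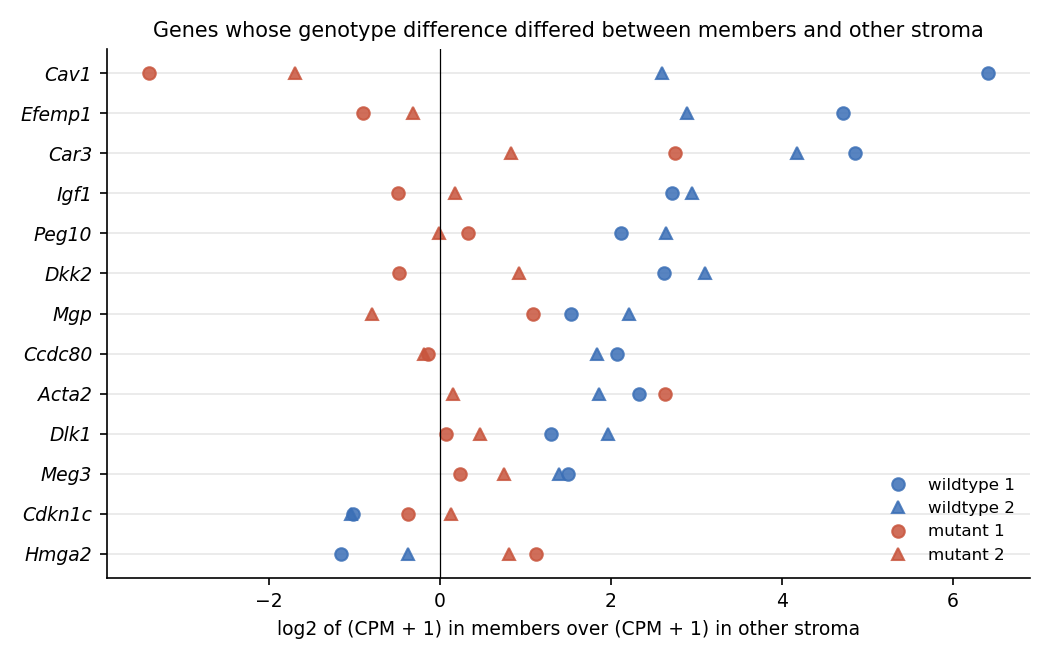
Log2 of the ratio of (CPM + 1) in members to (CPM + 1) in other stroma of the same library (horizontal), for the genes named from the interaction test (blue, wildtype; red, mutant; circles, replicate 1; triangles, replicate 2). For Igf1 the wildtype members were at 331 and 87.8 CPM beside 49.7 and 10.5 in other stroma, and the mutant members at 129 and 297 beside 182 and 262, so the mutant points lie near 0.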

How the data were processed

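The authors deposited, per library, a table of counts per gene and cell barcode. All values are whole numbers, and every barcode has at least 500 genes. Alignment with Bowtie2 2.2.7 to mm10 is named in the submitters' processing notes. Annotation, strand handling and collapsing of molecular identifiers are not given in the sources used here; counts are called UMIs.

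Members and comparison sets were chosen by the stated rules, with 37 mitochondrial genes in the limit. Since the replicate is the library and not the cell, UMIs were added up over the barcodes of a set in each library. Sums were tested in R 4.3.3 by the robust quasi-likelihood test of edgeR 4.0.16, after TMM scaling and a filterByExpr minimum count of 10, with library as a block between sets of 1 library. Adjusted p-values are Benjamini-Hochberg over all genes tested, with a threshold of 0.05. CPM in comparisons are TMM-scaled within each fit, so a gene's value differs slightly between fits; ± is the SD over libraries. Alternatives were DESeq2 1.42.0, no filter, leaving out libraries, stricter or looser rules, thinning to 2000 UMIs, a replicate block, and no doublet candidates (the top 5% by Scrublet score within a library, as the tool's own threshold marked 10 barcodes). No doublets were removed otherwise. The crossed block, and members without epithelial UMIs or with at most 1% erythroid UMIs, were added after seeing the data.

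The members and the 36 gene lists were chosen with earlier results of these data known. Of 493 list genes 490 were in the tables; Cnmd, Snorc and Hoxd4 were not matched. Genes named from a test were the 10 with the largest change in either direction among those called, at a mean of 10 CPM or more and with no overlap between groups. For each list, up to 6 called genes were named, or for some lists the 2 of smallest p where 0 were called; the selecting and targeted genes and Malat1 were named too. Predicted, haemoglobin, mitochondrial, ribosomal protein, Xist and Y-linked genes were counted only, except Xist and Ddx3y beside Tsix. Other genes, such as Ptov1, Dcun1d5, Hmga1, Ccnd1 and Nefl, were named after their values were seen. Positions come from GENCODE vM21 (mm10), found for 177 of 181 genes. On simulated counts for the genotype comparison (5476 genes), 80% of 90 changes of 2 on the log2 scale and 97.8% of 93 changes of 3 were called, with 8 false calls of 171. The simulation gave every gene the same spread and had no deviating library. These rates therefore do not hold for the real libraries, where spread differs between genes.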

Additional observations from a re-analysis of the deposited data

Results flagged for a closer look

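Genes whose genotype difference in members differed from that in the other stroma, by the interaction test of edgeR, are listed with that difference on the log2 scale. It was -2.83 for Igf1, -2.42 for Dkk2, -2.11 for Ccdc80, -3.33 for Car3 and -1.33 for Dlk1. It was -0.921 for Meg3, -2.47 for Peg10, -5.26 for Cav1, -4.31 for Efemp1, -2.28 for Mgp and -1.72 for Acta2. The positive values were 1.63 for Hmga2 and 0.935 for Cdkn1c. Igf1 and Dkk2 passed in all 9 alternative fits, with adjusted p up to 0.00121 and 0.0287.

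Barcodes over the mitochondrial limit entered no comparison. Of those, 0 of 164 in wildtype 1, 5 of 502 (0.996%) in wildtype 2, 11 of 208 (5.29%) in mutant 1 and 132 of 1871 (7.06%) in mutant 2 met the rest of the rule. For wildtype 1 the upper 95% exact binomial limit was 2.22%, and the mutant mean was 6.17%.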

How the results depend on the processing

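Beside the 30 genotype calls in members, 70 genes passed without the filter on low counts, 14 without members holding epithelial UMIs and 0 with members chosen after thinning, and 34 to 64 with each library left out. The labels share replicate numbers between genotypes but tie no samples together, and same-numbered libraries deviated with r = -0.17 over 5897 genes. With the replicate block 39 genes passed, 28 of them among the 30, and 116 with crossed numbers. Against cortical stroma (384 calls), 138 passed with DESeq2, 97 after thinning, 17 with no replicate block, and 170 to 354 with each library left out. Against medullary stroma (186 calls), 83 passed with DESeq2, 27 with no replicate block, and 84 to 247 with each library left out; thinning could not be run, as a set fell under 5 barcodes. Between Postn-led and Dcn-led members (0 calls), 21 passed without the filter, 6 with at least 6 UMIs over the selecting genes, 10 after thinning, 0 with no replicate block, and 0 to 33 with each library left out. For the interaction (14 calls), 7 passed with DESeq2, 22 without the highest doublet scores, and 16 to 28 with each library left out, of which 7 to 14 were among the 14. With any number of Foxd1, Penk, Alx1 and Pecam1 UMIs the shares were 6.06% in wildtype and 20.9% in mutant libraries. Directions turned for Hoxa10 (0.085 without epithelial UMIs), Hoxa11 (0.32 after thinning; -1.01 to 1.56 with each library left out) and Hoxd9 (-0.23; -0.13 to 1.31). They also turned in the interaction for Acta2 (-1.96 to 0.65 with each library left out) and a haemoglobin gene (-5.54 to 2.27). The causes were not tested. With 71 to 497 members a library, genes with few counts were not tested.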
